A study of Homo sapiens with 4 samples.

Results

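The genes described here are the interferon-stimulated and interferon signalling genes, a set of 38 listed by name from the known interferon pathway. No threshold on their values was used, but the set was chosen with earlier results of these data known. Each gene was represented by the brightest probe set over the 4 arrays that is annotated to it alone. Of the 38, 36 were measured among the 18417 genes of the table. DDX58 was found under its present symbol, RIGI. STAT2 was not analysed here, and GBP1 had only a probe set that also reads other genes, so GBP1 was not tested.

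The arrays compare MV4-11R with MV4-11. MV4-11 is an established human acute myeloid leukaemia line that depends on an activated FLT3 receptor kinase. MV4-11R was derived from it during 3 months of growth in rising amounts of PKC412 (midostaurin), a tyrosine kinase inhibitor, and is labelled drug-resistant with low EZH2 expression, whereas MV4-11 is labelled drug-sensitive with high EZH2 expression. Total RNA of each line was hybridised to 2 arrays. The labels give neither whether MV4-11R is 1 clone, nor whether PKC412 was present at harvest, nor whether replicates came from separate cultures. The p-values therefore describe array-to-array spread that could be technical.

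Type I interferons bind a receptor made of the chains IFNAR1 and IFNAR2, whose Janus kinases JAK1 and TYK2 start the signal. It leads to a transcription factor complex containing IRF9, which binds the interferon-stimulated response element (ISRE) in front of its target genes. The targets include antiviral effectors, sensors of viral nucleic acid, transcription factors that prolong the response, and USP18, which limits it. Interferon gamma acts through another receptor and through gamma-activated sites (GAS) in the DNA. In blood cells these genes can also be expressed at a steady level without infection.

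Values are log2 signals from RMA, the method that corrects background, normalizes the arrays to each other and summarises probes. Rises and falls are reported where limma's moderated test gave a Benjamini-Hochberg adjusted p under 0.05 over all 18417 genes, and differences are MV4-11R minus MV4-11. As a guide to background, the 95th percentile of 341 olfactory receptor genes, 6.26, is used below. Array medians over all probe sets lay between 6.75 and 6.78. EZH2 read 9.90 and 9.29 in MV4-11R, against 9.75 and 9.74 in MV4-11, a difference of -0.14 (limma adjusted p = 0.734). Of 10 myeloid markers 9 were measured and each was above the guide in at least 1 line, among them the transcription factors SPI1 and CEBPA. The lysozyme gene LYZ fell by 0.69 (limma adjusted p = 0.0192). CD14 and MPO had differences of 0.77 and 0.47 that did not pass, with both MV4-11R arrays above both MV4-11 arrays. Of the 9 markers 4 had positive differences, with a median of -0.039, and the list's summed linear signal was 16291 to 17768 in MV4-11R and 18141 to 21111 in MV4-11. No call was made among 3 plasmacytoid dendritic cell, 3 erythroid and 6 epithelial or fibroblast markers measured, beside 15.1% of all genes. At or below the guide in both lines were 1, 3 and 2 of them, in that order. Others read above it, such as KRT8 (means 7.81 in MV4-11R and 8.14 in MV4-11) and COL1A1 (7.75 and 7.72). A signal above the guide was thus not particular to the myeloid markers. Of the T and NK cell markers CD3D, CD3E, CD3G, CD2 and KLRD1 were at or below the guide in both lines, and the granule protein gene NKG7 rose by 0.94. The summed linear signal of that list of 6 was 2684 to 2810 in MV4-11R and 1468 to 1558 in MV4-11. That sum came mostly from NKG7 (means 11.33 and 10.38), and the median difference of the list was -0.11. Among 4 measured B cell markers PAX5 rose by 0.80, CD79B fell by 1.09 and MS4A1 was under the guide, with sums of 531 to 566 in MV4-11R and 561 to 624 in MV4-11. The part of LYZ, NKG7, PAX5 and CD79B in the results on interferon genes was not tested. In such bulk RNA a change in the share of cells of a kind cannot be told from a change in RNA per cell.

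A subset of the interferon genes was higher in MV4-11R. Of the 36, 7 rose (19.4%), 1 fell (2.78%) and 28 did not pass limma's test. Over all genes tested, 7.92% rose and 7.13% fell, or 15.1% in either direction. The set was chosen with earlier results of these data known, so these shares are a description and not a test. The rises were of HERC6, IFIT2, IFIT3, IFITM1, USP18, IFIT1 and IFI35, and the fall was of TRIM22. The median difference of the 36 genes was 0.18, beside 0.01 over all genes. Both MV4-11R arrays lay above both MV4-11 arrays for 15 of the 36 genes (41.7%), beside 29.6% of all genes, and below them for 4 (11.1%), beside 26% of all genes.

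The promoters of several of these genes are shown before their values, because the ISRE links the set to interferon signalling. RefSeq promoter windows of assembly GRCh38.p14, which span 250 bases before and 50 after an annotated start, were found for 27 of the 36 genes, and 9 had no entry (IFIT2, MX2, OAS2, OASL, IRF7, USP18, GBP2, IFNAR2 and TRIM22). The core of the ISRE was searched as TTTCNNTTTC or, on the other strand, GAAANNGAAA, with any base at N. It was found for 17 of the 27 genes (63.0%), against 1195 of 27305 genes with a window (4.38%), a window being counted once per start and a gene once over its starts. The GAS core TTCNNNGAA, which reads the same on both strands, was found for 8 of the 27 genes (29.6%), against 9.38% of all genes, and shared bases with an ISRE core in 4 of the 8, BST2, IFI27, IFITM1 and MX1.

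The first set shows the rising genes with a window, 260 bases each, from 250 bases before the start to 10 bases from it, with ISRE cores in capitals. IFIT3 (chr10:89327747-89328006) and IFIT1 (chr10:89392373-89392632) lie on the plus strand of chromosome 10, IFITM1 (chr11:313790-314049) on that of chromosome 11, HERC6 (chr4:88378602-88378861) on that of chromosome 4 and IFI35 (chr17:43006534-43006793) on that of chromosome 17.
IFIT3: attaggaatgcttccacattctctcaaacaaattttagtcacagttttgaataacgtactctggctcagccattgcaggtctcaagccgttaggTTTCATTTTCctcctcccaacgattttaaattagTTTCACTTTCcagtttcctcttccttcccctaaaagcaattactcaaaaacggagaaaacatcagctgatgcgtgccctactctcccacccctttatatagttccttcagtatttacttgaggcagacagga
IFIT1: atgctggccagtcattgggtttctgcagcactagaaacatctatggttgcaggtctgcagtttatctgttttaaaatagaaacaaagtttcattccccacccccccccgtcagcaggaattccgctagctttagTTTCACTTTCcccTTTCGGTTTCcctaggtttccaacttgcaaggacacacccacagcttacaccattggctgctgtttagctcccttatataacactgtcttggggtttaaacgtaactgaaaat
IFITM1: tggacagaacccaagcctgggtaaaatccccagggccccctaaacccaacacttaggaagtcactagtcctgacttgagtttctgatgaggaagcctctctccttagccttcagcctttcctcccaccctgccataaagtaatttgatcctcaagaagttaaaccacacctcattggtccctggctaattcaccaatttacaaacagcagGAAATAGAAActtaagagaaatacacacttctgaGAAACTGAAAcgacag
HERC6: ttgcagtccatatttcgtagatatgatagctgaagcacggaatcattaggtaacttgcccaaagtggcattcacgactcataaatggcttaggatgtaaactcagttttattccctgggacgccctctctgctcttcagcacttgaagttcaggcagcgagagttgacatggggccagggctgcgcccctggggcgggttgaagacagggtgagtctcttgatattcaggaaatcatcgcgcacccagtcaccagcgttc
IFI35: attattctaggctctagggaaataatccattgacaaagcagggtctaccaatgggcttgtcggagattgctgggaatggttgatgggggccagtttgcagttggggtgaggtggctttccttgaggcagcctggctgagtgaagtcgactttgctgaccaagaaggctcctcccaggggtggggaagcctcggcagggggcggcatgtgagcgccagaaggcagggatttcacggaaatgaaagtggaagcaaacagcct

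IFIT3 has cores starting at -156 and -122 from this start, and 2 more before a second annotated start. IFIT1 has cores at -116 and -103, and IFITM1 at -40 and at -6, the last crossing the start. HERC6, with a difference larger than that of the other 4, and IFI35 had no match to these letters in the window. IFI35 had a GAS core at -22.

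The second set shows 4 genes that did not pass the test, for comparison: HERC5 (chr4:88456869-88457128, plus strand), the neighbour and relative of HERC6 on chromosome 4, and on chromosome 1 ISG15 (chr1:1013247-1013506, plus strand), IFI44L (chr1:78620198-78620457, plus strand) and IFI6 (chr1:27672183-27672442, minus strand).
HERC5: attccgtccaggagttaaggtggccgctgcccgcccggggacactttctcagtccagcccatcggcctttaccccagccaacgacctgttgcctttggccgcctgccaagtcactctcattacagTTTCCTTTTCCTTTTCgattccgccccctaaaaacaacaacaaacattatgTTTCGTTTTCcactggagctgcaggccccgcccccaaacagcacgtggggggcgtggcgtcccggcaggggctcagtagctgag
ISG15: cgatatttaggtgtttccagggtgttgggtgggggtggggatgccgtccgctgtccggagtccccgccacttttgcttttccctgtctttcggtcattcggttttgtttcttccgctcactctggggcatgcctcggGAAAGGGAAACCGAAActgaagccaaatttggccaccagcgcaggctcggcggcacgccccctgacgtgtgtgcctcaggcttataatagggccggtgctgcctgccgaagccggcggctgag
IFI44L: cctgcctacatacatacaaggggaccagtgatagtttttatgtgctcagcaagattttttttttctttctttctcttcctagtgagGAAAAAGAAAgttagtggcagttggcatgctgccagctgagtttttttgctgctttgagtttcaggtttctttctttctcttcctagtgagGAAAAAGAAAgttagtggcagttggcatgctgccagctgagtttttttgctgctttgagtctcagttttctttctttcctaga
IFI6: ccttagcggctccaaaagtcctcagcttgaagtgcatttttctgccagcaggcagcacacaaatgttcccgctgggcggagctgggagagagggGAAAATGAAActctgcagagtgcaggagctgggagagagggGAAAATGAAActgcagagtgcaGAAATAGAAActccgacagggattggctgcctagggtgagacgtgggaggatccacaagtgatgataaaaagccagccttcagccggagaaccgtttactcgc

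In ISG15 and HERC5 the cores at -113 and -107 and at -125 and -119 overlap and appear as 1 longer run of capitals. Among the 5 rising genes with a window 3 had an ISRE core, and among the 22 that did not pass 14 did. The genes of the second set were picked by name and each has a core, whereas 8 of the 22 have none. A match is a description of the letters and not of binding.

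**Figure D1:**
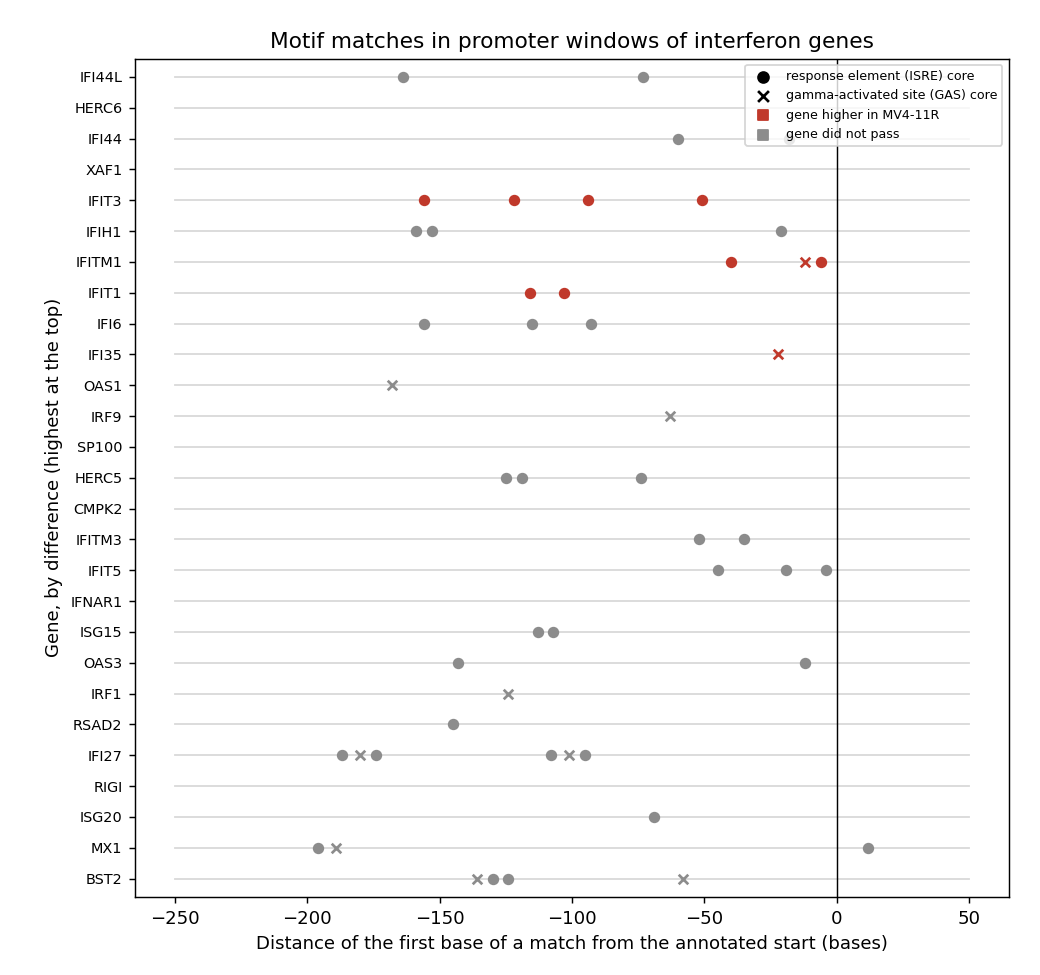
Positions of ISRE cores (circles) and GAS cores (crosses) in the promoter windows of the 27 genes with an entry, as the distance in bases of the first base of a match from the annotated start, with genes ordered by their difference between the lines and the windows of genes with several starts drawn on 1 line. Matches are found both in genes higher in MV4-11R (red) and in genes that did not pass (grey), and HERC6 has none.

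The receptor chains showed little difference. IFNAR1 had a difference of 0.05 (95% interval -0.34 to 0.44) and IFNAR2 of -0.19 (-0.64 to 0.26), and their groups overlapped. The transcription factors measured did not pass either. IRF9, a DNA-binding part of the complex at the ISRE, read 9.19 and 9.42 in MV4-11R, against 8.66 and 9.02 in MV4-11. Both MV4-11R arrays were higher, and the difference of 0.46 (SE 0.16, limma adjusted p = 0.116) did not pass. IRF7, which amplifies interferon production, and IRF1, which acts in both interferon pathways, had differences of 0.08 and -0.04.

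Of the cytoplasmic RNA sensors, IFIH1 (MDA5) read 6.63 and 7.33 in MV4-11R, against 5.64 and 6.51 in MV4-11. The groups did not overlap, but the arrays of each line lay far apart, and the difference of 0.90 (SE 0.34, limma adjusted p = 0.138) did not pass. With 1 array left out, the IFIH1 difference ran from 0.47 (without MV4-11 replicate 1, adjusted p = 0.426) to 1.34 (without MV4-11 replicate 2, 0.0372). RIGI, the sensor of RNA with a free triphosphate end, had a difference of -0.09 (95% interval -0.44 to 0.25).

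The IFIT genes, whose products bind viral RNA or stop its translation, stood together on chromosome 10. Each was higher on every MV4-11R array than on either MV4-11 array, as were 29.6% of all genes, though IFIT5 by little. IFIT2 read 6.51 and 7.03 in MV4-11R, against 4.9999 and 5.37 in MV4-11, where it was below the guide. It rose 3.01-fold (log2 difference 1.59, SE 0.21, limma adjusted p = 0.00752), and it rose also with any 1 array left out, though the fold is not exact for a gene below the guide. IFIT3 read 7.11 and 7.66 in MV4-11R, against 6.41 and 6.36 in MV4-11, and rose by 1.001 (SE 0.19, limma adjusted p = 0.0211).

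IFIT1 read 5.66 and 5.71 in MV4-11R, against 4.75 and 5.04 in MV4-11, all below the background guide. Its rise of 0.79 (SE 0.13, limma adjusted p = 0.0153) is therefore of uncertain size. IFIT5 differed by 0.11 (95% interval -0.16 to 0.37), also below the guide. Leaving out an array of MV4-11 ended some of these calls. The IFIT3 difference was 1.02 (adjusted p = 0.0511) without MV4-11 replicate 1 and 0.98 (0.0575) without MV4-11 replicate 2, and that of IFIT1 was 0.64 (0.0563) without MV4-11 replicate 1. The IFIT genes are related in sequence, so part of the signal may be shared between their probe sets, which was not tested.

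The ISG15 system attaches the ubiquitin-like protein ISG15 to other proteins and removes it. HERC6, a relative of the human ISG15 ligase HERC5, read 7.43 and 7.31 in MV4-11R, against 5.68 and 5.80 in MV4-11. It had the smallest adjusted p of the 36 genes (difference 1.63, SE 0.12, 3.10-fold, limma adjusted p = 0.00154), and its difference stayed between 1.57 and 1.70 with any 1 array left out. HERC6 was below the guide in MV4-11, so the fold is not exact.

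USP18, which removes ISG15 and blocks IFNAR2 signalling, read 8.52 and 8.75 in MV4-11R, against 7.77 and 7.90 in MV4-11. It rose by 0.81 (SE 0.13, limma adjusted p = 0.0127), or by 0.74 (adjusted p = 0.0503) without MV4-11 replicate 1, which ended the call. HERC5 had a difference of 0.28 (95% interval -0.14 to 0.70). ISG15 itself read 6.98 and 7.06 in MV4-11R, against 6.92 and 7.02 in MV4-11, so the groups overlapped, and its difference was 0.05 (95% interval -0.22 to 0.32).

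Of the membrane proteins that block entry or release of viruses, IFITM1 read 10.77 and 11.20 in MV4-11R, against 10.21 and 10.07 in MV4-11. It rose by 0.85 (SE 0.17, 1.80-fold, limma adjusted p = 0.0230), and without MV4-11 replicate 2 the call was lost (adjusted p = 0.0733). The related IFITM3, whose sequence is close enough that probes may share signal, had groups that overlapped widely, at 5.64 and 6.58 in MV4-11R and 6.24 and 5.49 in MV4-11, and a difference of 0.24. BST2 (tetherin), which holds budding virus at the cell surface, read 8.89 and 9.36 in MV4-11R, against 9.36 and 9.69 in MV4-11. The groups met without overlapping, and the difference of -0.40 (SE 0.20, limma adjusted p = 0.252) did not pass.

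The enzymes OAS1, OAS2 and OAS3 make the second messenger that activates RNase L. None of OAS1, OAS2, OAS3, OASL and the RNase ISG20 passed limma's test, and the smallest adjusted p was 0.399. OAS1 read 8.47 and 9.39 in MV4-11R, against 8.13 and 8.72 in MV4-11, with overlapping groups and a difference of 0.51. Leaving out MV4-11R replicate 1 moved the OAS1 difference to 0.97, and leaving out MV4-11R replicate 2 moved it to 0.045, and it passed in neither fit (adjusted p = 0.0710 and 0.945). OAS2 read 7.39 and 8.94 in MV4-11R, against 8.14 and 8.39 in MV4-11, so that the MV4-11R arrays lay on either side of MV4-11 and the difference was -0.10. OAS3, OASL and ISG20 had differences of 0.04, -0.04 and -0.14.

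Among the GTPases, GBP2 read 6.64 and 7.98 in MV4-11R, against 8.22 and 8.95 in MV4-11. Both MV4-11R arrays were lower, and the difference of -1.28 (SE 0.45, limma adjusted p = 0.120) did not pass. With 1 array left out, the GBP2 difference ran from -1.95 (without MV4-11R replicate 2, adjusted p = 0.0124) to -0.61 (without MV4-11R replicate 1, 0.283). A second probe set of GBP2 had a difference of -0.57. The probe set that GBP1 shares with other genes read 6.37 and 7.03 in MV4-11R, against 6.92 and 7.31 in MV4-11, with overlapping groups. The dynamin-like antiviral proteins MX1 and MX2 had differences of -0.24 and -0.11. RSAD2 (viperin) and its neighbour CMPK2, which work on nucleotides, had differences of -0.05 and 0.25. Mean signals of MX1 (6.52 in MV4-11R, 6.76 in MV4-11) and RSAD2 (6.40 and 6.45) lay little above the guide, so their differences may be understated.

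The remaining interferon-stimulated genes held the largest positive difference and the fall. TRIM22, a ubiquitin ligase that restricts viruses, read 8.17 and 8.20 in MV4-11R, against 9.05 and 9.19 in MV4-11. It fell by 0.93 (SE 0.11, 1.91-fold, limma adjusted p = 0.00563), and it fell also with any 1 array left out. IFI35, a binding partner of NMI, read 9.17 and 9.23 in MV4-11R, against 8.50 and 8.80 in MV4-11. Its rise of 0.55 (SE 0.14, limma adjusted p = 0.0454) was lost without MV4-11 replicate 1 (0.191), MV4-11R replicate 1 (0.106) or MV4-11R replicate 2 (0.118).

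IFI44L, whose product damps the antiviral response, had the largest difference of the 36 genes, 1.92, but its SE was 0.72 (limma adjusted p = 0.143). It read 5.90 and 8.37 in MV4-11R, against 5.04 and 5.38 in MV4-11. Its neighbour IFI44 read 6.33 and 7.93 in MV4-11R, against 5.47 and 5.92 in MV4-11 (difference 1.44, SE 0.49, limma adjusted p = 0.111). Both genes were below the guide in MV4-11, the groups did not overlap, and 1 of the MV4-11R arrays was far above the other. XAF1, which opposes the caspase inhibitor XIAP, read 11.45 and 10.55 in MV4-11R, against 10.21 and 9.72 in MV4-11 (difference 1.04, SE 0.31, limma adjusted p = 0.0799). With 1 array left out, the XAF1 difference ran from 0.59 (without MV4-11R replicate 1, adjusted p = 0.179) to 1.49 (without MV4-11R replicate 2, 0.0123).

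IFI6, a mitochondrial protein that delays apoptosis, read 10.56 and 11.96 in MV4-11R, against 10.26 and 10.77 in MV4-11, so the groups overlapped (difference 0.75, SE 0.44, limma adjusted p = 0.343). SP100, a component of PML nuclear bodies, read 9.26 and 9.51 in MV4-11R, against 9.10 and 9.05 in MV4-11 (difference 0.31, SE 0.13, limma adjusted p = 0.178). A brighter probe set that also reads other genes went the other way, at 12.35 and 12.34 in MV4-11R and 12.58 and 12.43 in MV4-11. The brighter shared probe set of USP18 was higher in MV4-11R, at 10.18 and 10.53, against 9.39 and 9.30 in MV4-11. IFI27 had a difference of -0.09, with overlapping groups and means of 6.54 in MV4-11R and 6.63 in MV4-11, little above the guide.

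**Figure D2:**
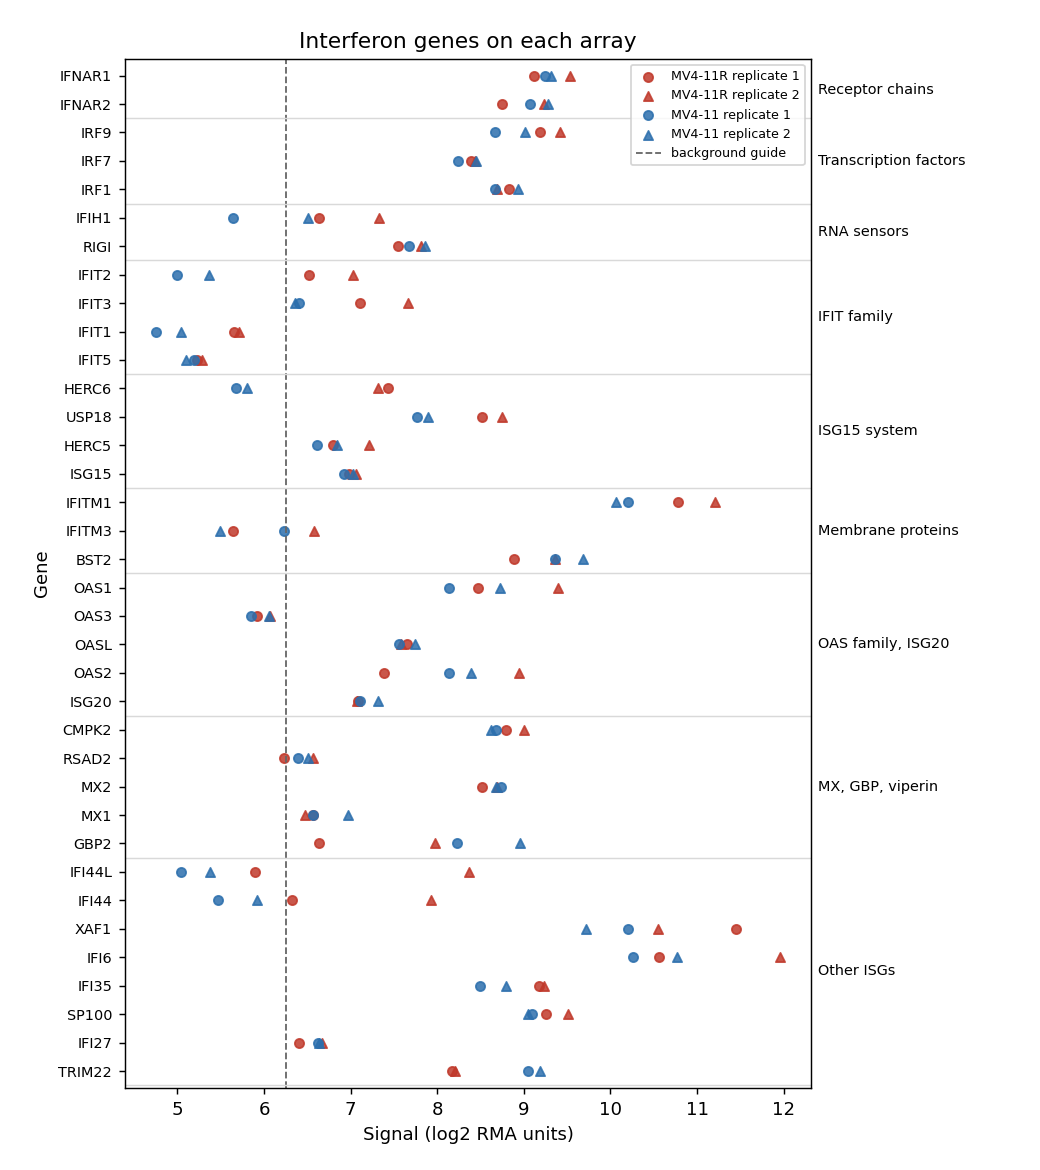
Log2 RMA signal (x axis) of the 36 measured interferon genes (rows, by role) on the MV4-11R arrays (red) and the MV4-11 arrays (blue), circles for replicate 1 and triangles for replicate 2, with the background guide of 6.26 as a dashed line. HERC6, IFIT2, IFIT3, IFITM1 and USP18 show red points apart from blue ones, TRIM22 shows the reverse, and IFI44L, IFI44, OAS2, IFI6 and GBP2 show wide gaps between the red points.

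**Figure D3:**
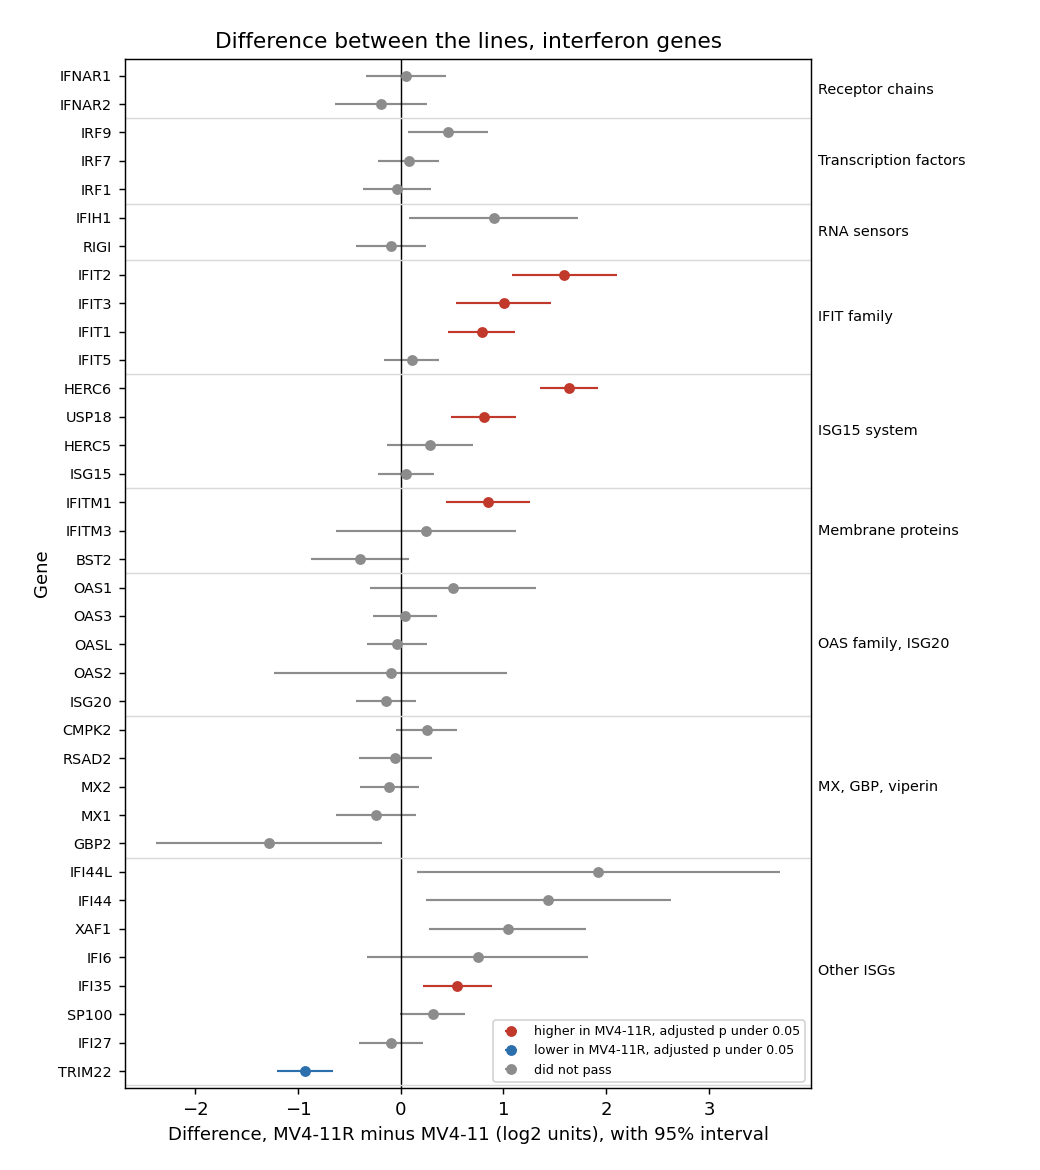
Difference between the lines (MV4-11R minus MV4-11, log2 units, x axis) of each of the 36 interferon genes with limma's 95% interval. The 7 genes that rose are red, TRIM22 is blue and the 28 that did not pass are grey, and the widest interval, of IFI44L, runs from 0.16 to 3.69. The intervals are not adjusted for the number of genes, so some that leave out 0 belong to genes that did not pass.

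The interferon genes varied between arrays of one line more than most genes did, a pattern described after the values were seen. The median absolute gap of the 36 was 0.27 in MV4-11R and 0.21 in MV4-11, beside 0.14 and 0.13 over all genes. In MV4-11R, replicate 2 read above replicate 1 for 30 of the 36 genes (83.3%), beside 44.2% of all genes, with a median gap of 0.26, beside -0.03 over all genes. In MV4-11, replicate 2 was the higher for 28 of the 36 (77.8%), beside 54.5% of all genes, with a median gap of 0.20, beside 0.02. In both lines at once this held for 23 of the 36 (63.9%), beside 28.5% of all genes.

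Gaps of more than 1 log2 unit between the MV4-11R arrays were found for 5 of the 36 genes (13.9%), beside 0.451% of all genes. These were IFI44L (2.47), IFI44 (1.60), OAS2 (1.55), IFI6 (1.39) and GBP2 (1.34), each higher on replicate 2. In MV4-11, 0 of the 36 had such a gap, beside 0.217% of all genes. XAF1 went the other way, with replicate 1 higher by 0.90 in MV4-11R and by 0.49 in MV4-11.

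Several values turned on 1 array. With MV4-11R replicate 1 left out, the differences of IFI44L, IFI44 and IFI6 were 3.16, 2.24 and 1.45 (limma adjusted p = 0.00127, 0.00422 and 0.0178). With MV4-11R replicate 2 left out, they were 0.69, 0.64 and 0.05 (adjusted p = 0.0649, 0.116 and 0.928). For OAS2 the same pair of fits gave 0.68 (adjusted p = 0.0609) and -0.88 (0.0236), so its direction depended on the array. Leaving out MV4-11R replicate 1 gave 9 risen genes of the 36 and leaving out MV4-11R replicate 2 gave 7 risen and 3 fallen. Leaving out MV4-11 replicate 1 gave 3 risen genes and leaving out MV4-11 replicate 2 gave 6. Calls over all genes were also fewer than 2772 in these fits, at 1699 and 2479 without MV4-11R replicates 1 and 2 and at 1588 and 1638 without MV4-11 replicates 1 and 2.

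**Figure D4:**
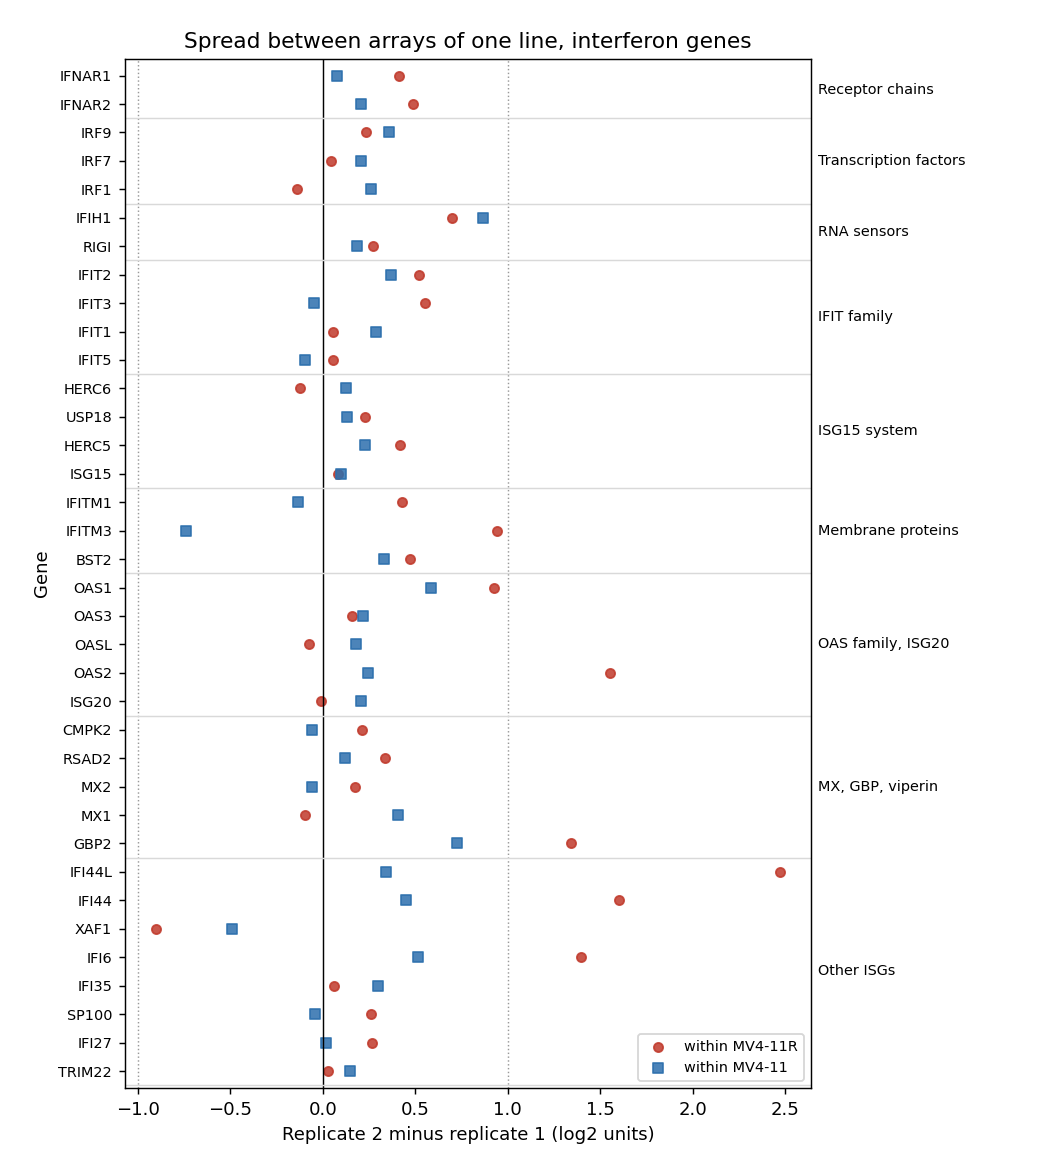
Replicate 2 minus replicate 1 (log2 units, x axis) within MV4-11R (red circles) and within MV4-11 (blue squares) for the 36 interferon genes, with dotted lines at 1 unit either way. Most points lie right of 0 in both lines, the gap of IFI44L in MV4-11R reaches 2.47, and XAF1 lies left of 0 in both.

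No large regional shift was seen around the 36 genes on their chromosomes. It was judged by medians, which do not show how single neighbours differed. For each of the 36, the median difference of 30 neighbours of above-median level, 15 on each side, was between -0.11 (ISG20) and 0.21 (BST2). With that shift removed, the same 7 genes rose and TRIM22 fell.

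Other genes of the pathway were taken from 7 lists, also chosen with earlier results of these data known, with 104 of 114 genes measured. Of these 14 rose, 12 fell and 78 did not pass, with a median difference of 0.05. These are shares of 13.5% and 11.5%, beside 7.92% and 7.13% of all genes. Of 16 measured ligands 0 rose and 0 fell, 13 were at or below the background guide in both lines, and the largest difference was that of IFNA21, at -0.28 (limma adjusted p = 0.164). IFNB1 differed by 0.12.

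Of 7 further receptor chains and Janus kinases 0 rose and 1 fell, beside 7.92% and 7.13% of all genes. The fall was of JAK1, which serves every interferon receptor. It read 10.20 and 10.34 in MV4-11R, against 10.86 and 10.88 in MV4-11, a difference of -0.60 (SE 0.11, limma adjusted p = 0.0205). The call was lost without MV4-11R replicate 1 (0.0775), MV4-11 replicate 1 (0.0736) or MV4-11 replicate 2 (0.0791). The other 6 did not pass. Both MV4-11R arrays lay below both MV4-11 arrays for 5 of the 7 genes, JAK1 included, beside 26% of all genes. They lay above them for 1 of the 7, beside 29.6% of all genes.

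Of 20 genes of nucleic acid sensing 1 rose (5%) and 3 fell (15%), beside 7.92% and 7.13% of all genes. IKBKE, a kinase that activates interferon regulatory factors, read 9.92 and 9.54 in MV4-11R, against 8.82 and 8.73 in MV4-11, and rose by 0.95 (SE 0.15, limma adjusted p = 0.0132). The DNA sensor IFI16 read 8.75 and 8.50 in MV4-11R, against 10.07 and 10.05 in MV4-11, and fell by 1.43 (SE 0.13, limma adjusted p = 0.00231). IRF5, which acts downstream of Toll-like receptors, fell by 1.08 (limma adjusted p = 0.00398). The RNA receptor TLR7 fell by 0.83 (limma adjusted p = 0.0231), below the guide in both lines, and this call was lost without MV4-11R replicate 2 (0.0581) or MV4-11 replicate 2 (0.0786).

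Of 5 other STAT and IRF genes measured 0 rose and 2 fell (40%), beside 7.92% and 7.13% of all genes. IRF8, which directs monocyte and dendritic cell development, read 10.33 and 10.50 in MV4-11R, against 11.90 and 11.86 in MV4-11, and fell by 1.46 (SE 0.12, 2.75-fold, limma adjusted p = 0.00192). IRF4 read 6.63 and 6.802 in MV4-11R, against 8.002 and 7.86 in MV4-11, and fell by 1.22 (SE 0.12, limma adjusted p = 0.00336). The groups were well apart in both genes. Of 8 negative regulators 2 rose (25%) and 1 fell (12.5%), beside the same shares of all genes. SOCS1, which inhibits Janus kinases, and the phosphatase PTPN2 rose by 0.65 and 0.67 (limma adjusted p = 0.0339 and 0.0424). IRF2, a repressor at interferon response elements, fell by 0.72 (limma adjusted p = 0.0494). Each of these 3 calls was lost when MV4-11R replicate 1, or MV4-11 replicate 1, was left out, the PTPN2 and IRF2 calls also without MV4-11 replicate 2 and the SOCS1 call without MV4-11R replicate 2. PTPN2 neighbours had a median difference of 0.34, and with that shift removed its difference was 0.32 (adjusted p = 0.231). IRF2 did not pass with the arrays centred on their medians (adjusted p = 0.0523).

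Of 15 measured targets led by interferon gamma 4 rose (26.7%) and 2 fell (13.3%), beside 7.92% and 7.13% of all genes. The guanylate-binding protein GBP5, which promotes inflammasome assembly, read 7.98 and 8.79 in MV4-11R, against 5.38 and 5.94 in MV4-11. It rose by 2.72 (SE 0.30, 6.61-fold, limma adjusted p = 0.00439), while GBP2 of the same gene cluster had a negative difference. GBP4 read 6.33 and 7.64 in MV4-11R, against 4.88 and 5.56 in MV4-11, and rose by 1.76 (SE 0.44, limma adjusted p = 0.0460). That call was lost without MV4-11R replicate 2 (0.0529) or MV4-11 replicate 1 (0.126), or with the regional shift removed (0.0513).

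GBP5 and GBP4 were below the guide in MV4-11, so their folds are not exact. The secreted SECTM1 rose by 1.43 (limma adjusted p = 0.00252). The immunoproteasome subunit PSMB9 and CIITA, the regulator of MHC class II genes, fell by 0.78 and 0.72 (limma adjusted p = 0.0157 and 0.0156). PSMB9 neighbours had a median difference of -0.49, and with that shift removed its difference was -0.29 (adjusted p = 0.204). PSMB9 did not pass without MV4-11 replicate 2 (0.0564), nor did CIITA without MV4-11 replicate 1 (0.0528) or replicate 2 (0.0550).

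Of 33 measured further interferon-stimulated genes 7 rose (21.2%) and 3 fell (9.09%), beside 7.92% and 7.13% of all genes. The helicase DDX60 read 6.64 and 7.495 in MV4-11R, against 4.84 and 4.92 in MV4-11, and rose by 2.19 (SE 0.27, limma adjusted p = 0.00591), and was below the guide in MV4-11. Its relative DDX60L read 8.37 and 8.53 in MV4-11R, against 7.03 and 7.25 in MV4-11, and rose by 1.31 (SE 0.13, limma adjusted p = 0.00327). The secreted glycoprotein LGALS3BP rose by 1.68 (limma adjusted p = 0.0110).

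SLFN11, which blocks stressed replication forks, read 7.85 and 8.18 in MV4-11R, against 9.30 and 9.64 in MV4-11, and fell by 1.45 (SE 0.17, limma adjusted p = 0.00536). The nucleotide hydrolase SAMHD1 and UBA7, the enzyme that activates ISG15, fell by 0.65 and 0.58 (limma adjusted p = 0.0268 and 0.0304). Both calls were lost without MV4-11R replicate 1, MV4-11 replicate 1 or MV4-11 replicate 2. In this list too, MV4-11R replicate 2 read above replicate 1 for 29 of 33 genes (87.9%) and MV4-11 replicate 2 above replicate 1 for 27 of 33 (81.8%).

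**Figure D5:**
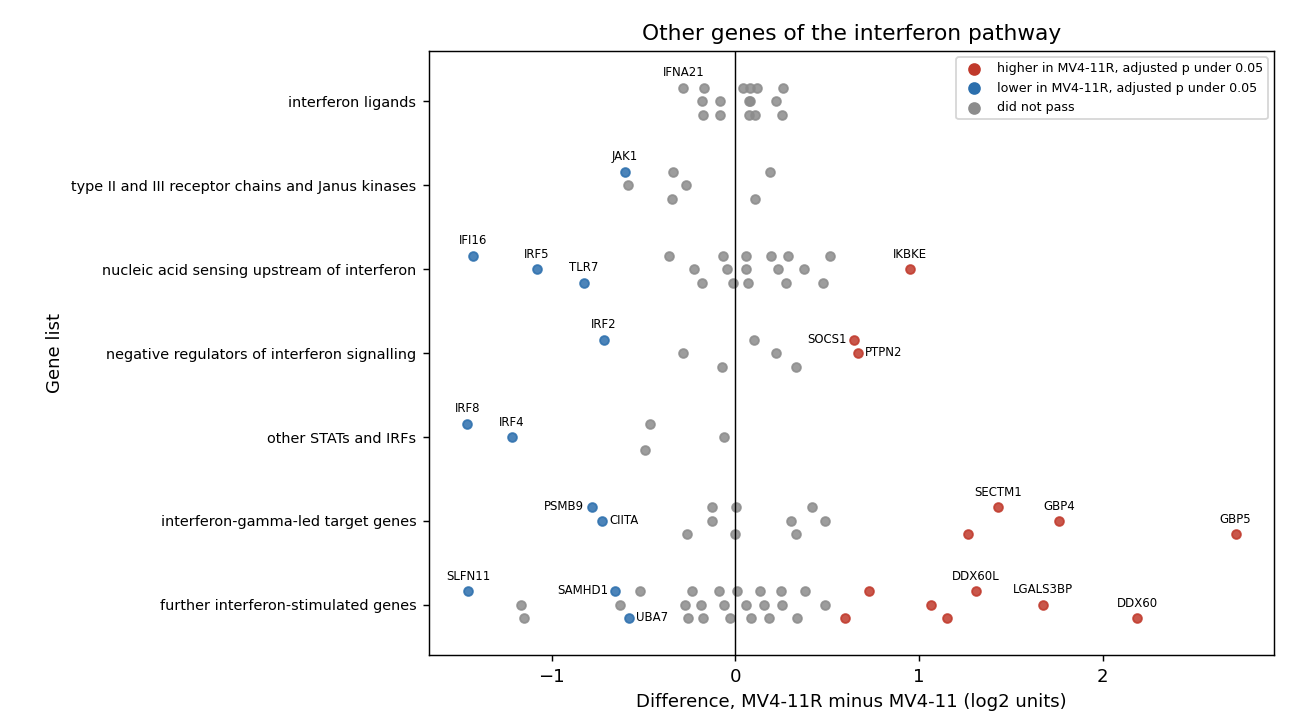
Difference between the lines (MV4-11R minus MV4-11, log2 units, x axis) for the 104 measured genes of 7 other lists of the interferon pathway (rows, with points spread vertically for legibility), red where higher, blue where lower at an adjusted p under 0.05 and grey otherwise. The ligands lie between -0.28 and 0.26, the STAT and IRF genes lie left of 0, and GBP5 and DDX60 lie farthest right.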

How the data were processed

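RNA of 2 cell lines was measured on 4 Affymetrix arrays, 2 of MV4-11R and 2 of MV4-11. The authors deposited log2 signals per probe set, made with RMA (Affymetrix Expression Console, no version given) according to the submitters' processing notes. The log2 scale was read from the values. RMA compresses differences of dim genes, so differences near background may be understated, and the number of arrays limits the precision.

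Of 33297 probe sets, 19460 had 1 gene in the platform annotation, 1754 had several and 12083 were not listed. Symbols were updated by Entrez ID in a RefSeq table (31 probe sets without a match), and the brightest probe set per gene was kept, with no filter. No coordinates of probe sets are given, since the build behind the annotation is not given in the sources used here. Promoter windows were taken from RefSeq, assembly GRCh38.p14.

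Genes were tested with limma 3.58.1 (lmFit and eBayes) run in R 4.3.3. The 2-sided p-values were adjusted over 18417 genes by Benjamini-Hochberg, and the degrees of freedom were 2 between arrays and 6.06 including the prior. SE and 95% intervals are limma's. The alternatives were centring, quantile normalization, a level filter, the mean of probe sets, all probe sets on their own, a variance trend, a replicate block, removal of the regional shift and leaving out each array.

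The 38 members and the pathway and marker lists were chosen with earlier results of these data known. By rule, every member is named, with all 4 values for passing members and the next 10 by size. Of each other list, up to 3 passing rises and 3 passing falls are named, or the gene of largest difference. The promoters printed for comparison, of HERC5, IFI44L, IFI6 and ISG15, were picked by name. OAS2, IFITM3 and ISG15 are given on all arrays by choice after their values were seen, and LYZ, CD14, MPO, NKG7, PAX5, CD79B, MS4A1, SPI1, CEBPA, IFNB1 and the T and NK cell markers are named by the same choice.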

Additional observations from a re-analysis of the deposited data

How the results depend on the processing

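Of the 36 interferon genes 7 rose and 1 fell, and these counts were unchanged with median centring, quantile normalization, the mean of probe sets, a variance trend and the regional shift removed. The level filter, and the background guide as a filter (added after the data were seen), each left 6 rises and 1 fall. With all probe sets tested on their own, 1505 probe sets passed, a count in another unit than the 2772 genes called above. Of the 36 genes, 3 rose and 1 fell in that fit, or 4 in all. IFI35, IFIT1, IFIT3 and IFITM1 no longer passed there, and the cause was not tested.

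Replicates of the lines share only a number, and the differences between replicates correlated across genes at 0.262 between the lines. With the replicate number as a block, 13 of the 36 rose and 2 fell, or 15 in all, and 3642 of all genes passed, against 2772 without it. Added were IFI44, IFI44L, IFIH1, IRF9, OAS1 and XAF1 as rises and GBP2 as a fall.

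With 1 array left out, between 1588 and 2479 genes passed, 3 to 9 of the 36 rose, 1 to 3 fell and 4 to 10 passed in all. A lone array was then assumed to vary like the other line. HERC6, IFIT2 and TRIM22 passed in all 4 such fits.

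Some small differences changed sign. With the regional shift removed, IFI27 was at 0.0050 and IFNAR1 at -0.080. With 1 array left out, the differences ran from -0.23 to 0.038 for IFI27, -0.23 to 0.71 for IFITM3, -0.16 to 0.26 for IFNAR1, -0.43 to 0.052 for IFNAR2, -0.17 to 0.10 for IRF1 and -0.025 to 0.18 for IRF7. They ran from -0.00025 to 0.10 for ISG15, -0.88 to 0.68 for OAS2, -0.064 to 0.15 for OAS3, -0.13 to 0.055 for OASL, -0.23 to 0.040 for RIGI and -0.22 to 0.12 for RSAD2. EZH2 ran from -0.45 to 0.16. The causes were not tested. Signals at or below the guide limit IFIT1, IFIT5, OAS3 and IFITM3 in both lines. RSAD2, IFI27 and MX1 read only little above it, so their small differences are limited too.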
